A study of Macaca mulatta with 304 samples.

Results

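The interleukin-1 (IL-1) and interleukin-18 (IL-18) family was followed in whole blood through 9 genes, which were the rows of the count table with the symbols IL1RL1, IL1R1, IL1R2, IL1RAP, IL1RN, IL1B, IL18, IL18R1 and IL18RAP, 9 of 21070 genes in all. All 9 were found and all 9 passed the filter on low counts, which left 13751 genes. The samples came from 28 adult rhesus macaques (Macaca mulatta) of the Chinese sub-strain, aged 3 to 5 years, 14 females and 14 males. The thorax was irradiated with 9.8 Gy in 12 animals (lower dose, LD) and with 10.7 Gy in 16 animals (higher dose, HD), and blood was drawn on Day 3, 6, 9, 15, 21, 30, 40, 60, 90, 120, 150, 180, 210, 240 and 270. Controls were draws of 24 of these animals, 12 LD and 12 HD, taken 2 days before irradiation, and each of the 24 was set against itself. With the controls this gave 296 scheduled draws, and a further 8 draws fell on days off this schedule. Every animal received an opioid for pain from Day 4 to 25, and animals with rapid breathing were given dexamethasone, a glucocorticoid. The sample labels do not say which draws followed dexamethasone, so treated and untreated draws cannot be told apart. The members were chosen by earlier results of the same samples, in which IL1RL1 was high late after irradiation, so the values of Day 120 to 270 against control are given below as a description, with no test.

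Cytokines of this family act through pairs of receptor chains. IL1RL1, also called ST2, is the receptor of interleukin-33, and the same gene gives a soluble form that binds interleukin-33 without signalling. IL1R1 is the signalling receptor of IL-1, IL1RAP is the accessory chain shared by IL1R1 and IL1RL1, and IL1R2 is a decoy that binds IL-1 and does not signal. IL1RN is the antagonist that occupies IL1R1. IL1B and IL18 are cytokines made as precursors that caspase-1 of the inflammasome cleaves. IL18R1 binds interleukin-18 and IL18RAP is its accessory chain. In blood IL1RL1 is best known from mast cells, basophils, eosinophils and some lymphocytes, and IL1R2 from neutrophils and monocytes.

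The genes of 5 of the receptors are neighbours on chromosome 13 of the rhesus genome (Mmul_10), all on the plus strand and spread over 424890 bases. In order they were IL1R2 (chr13:5801167-5820963), IL1R1 (chr13:5894087-5968437), IL1RL1 (chr13:6097119-6131894), IL18R1 (chr13:6137599-6180884) and IL18RAP (chr13:6193733-6226056). IL1RL1 and IL18R1 lie 5704 bases apart and IL18R1 and IL18RAP 12848 bases apart, whereas 70080 bases separate IL1RL1 from IL1RL2 on its other side. IL1B (chr13:16005461-16011323, minus strand) and IL1RN (chr13:16298692-16314460, plus strand) are farther along the same chromosome, IL1RAP is on chr2:7196867-7283014 (minus strand) and IL18 on chr14:105282858-105307586 (minus strand). IL1RL1 shares exon bases with an antisense gene, LOC114671878, which has no row in the count table, and the strand setting of the counting is not given in the sources used here. The windows from 250 bases before to 50 bases after the annotated starts of the 3 adjacent receptor genes are shown because these genes were often high in the same draws, as given below. Capitals mark ACANNNTGT, the shape of a glucocorticoid receptor site, or AGATAA, the site of the GATA factors, on either strand.
IL1RL1, chr13:6096869-6097168, plus strand: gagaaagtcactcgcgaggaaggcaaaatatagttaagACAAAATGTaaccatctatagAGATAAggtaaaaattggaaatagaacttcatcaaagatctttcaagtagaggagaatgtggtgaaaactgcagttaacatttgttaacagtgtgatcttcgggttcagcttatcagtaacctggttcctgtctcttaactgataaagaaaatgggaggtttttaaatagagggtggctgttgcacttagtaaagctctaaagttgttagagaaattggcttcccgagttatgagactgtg
IL18R1, chr13:6137349-6137648, plus strand: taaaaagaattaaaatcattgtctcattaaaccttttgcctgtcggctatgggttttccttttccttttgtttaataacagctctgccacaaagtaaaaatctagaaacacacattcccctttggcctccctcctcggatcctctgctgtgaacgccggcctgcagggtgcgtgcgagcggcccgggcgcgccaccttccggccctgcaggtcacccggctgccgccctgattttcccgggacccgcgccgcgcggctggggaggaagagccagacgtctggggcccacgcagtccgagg
IL18RAP, chr13:6193483-6193782, plus strand: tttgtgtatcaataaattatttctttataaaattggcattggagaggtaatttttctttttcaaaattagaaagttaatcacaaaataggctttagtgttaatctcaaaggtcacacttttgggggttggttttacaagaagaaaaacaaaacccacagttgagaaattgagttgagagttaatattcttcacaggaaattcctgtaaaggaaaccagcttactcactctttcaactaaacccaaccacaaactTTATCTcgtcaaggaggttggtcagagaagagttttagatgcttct
The IL1RL1 window held 1 ACANNNTGT and 1 AGATAA, the IL18RAP window held 1 AGATAA on the minus strand just after the start, and the IL18R1 window held neither. Among the members not shown, the IL18 window held 1 ACANNNTGT, that of IL1RAP 2 AGATAA and that of IL1RN 1 AGATAA. The windows of IL1R1, IL1R2 and IL1B held neither. Of 21102 windows of the same length at protein-coding genes, 4.41% held ACANNNTGT and 9.44% held AGATAA. A motif of NF-kB was in 0.36% of these windows and in none of the 9 members' windows. At so small a share, none in 9 windows says nothing about the members. The starts are those of the annotation, which may lack first exons, so a window need not be the promoter. The sequences were read from the RefSeq genome, and a match is only a match of letters.

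Between 2840219 and 23638161 reads per sample fell on genes (median 8227563). The total was 6676757 to 14609879 in controls and 2840219 to 10371810 on Day 120 to 270. IL1RL1 had 4 to 6430 counts per sample and no sample at 0. Library numbers in the sample descriptions fell into 3 ranges, whose meaning is not given, and 20 of 24 controls had numbers of the low range while every draw from Day 30 on had the number 0 or a number of the high range. Levels below are in CPM, the counts scaled to a fixed library size, after upper quartile scaling. In bulk blood fewer cells of a type and less RNA per cell cannot be told apart.

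Before irradiation IL1RL1 was the lowest of the 9 members per length. Per kilobase of exon the control medians were 0.781 CPM for IL1RL1, 1.60 for IL18RAP, 2.79 for IL18, 2.92 for IL18R1, 4.51 for IL1R1, 5.56 for IL1RN, 18.3 for IL1R2, 37.5 for IL1B and 68.8 for IL1RAP. The ranges over the 24 controls overlapped for every pair of neighbours in this order. On Day 120 to 270 IL1RL1 was still last by its median of 2.12 CPM per kilobase, but its highest draw had 145. In CPM the controls of IL1RL1 ranged from 1.67 to 21.8 with a median of 5.04. One control, from the LD animal B1504, held the highest control value of IL1R1, IL1RAP, IL1RN, IL1B, IL18R1 and IL18RAP, and its IL1RL1 was 5.37 CPM.

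IL1RL1 did not climb evenly. It stayed within or near the control range in most draws and stood far above it in single draws from Day 40 on. Of 140 scheduled draws from Day 30 on, 17 were above 100 CPM, in 12 of 28 animals. From Day 3 to 21 the level was 0.741 to 22.2 CPM with a median of 5.71, and 1 draw (0.758%) lay above the highest control. From Day 30 to 90 it was 0.808 to 372 CPM with a median of 8.69, and 14 of 93 draws were above. From Day 120 to 270 it was 2.73 to 935 CPM with a median of 13.7, and 21 of 47 draws were above. Of the 8 draws off the schedule, 7 were above, with a range of 9.10 to 918 CPM. Medians thus moved little beside the highest draws, and most draws of every period overlapped the controls, except those taken off the schedule.

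**Figure D1:**
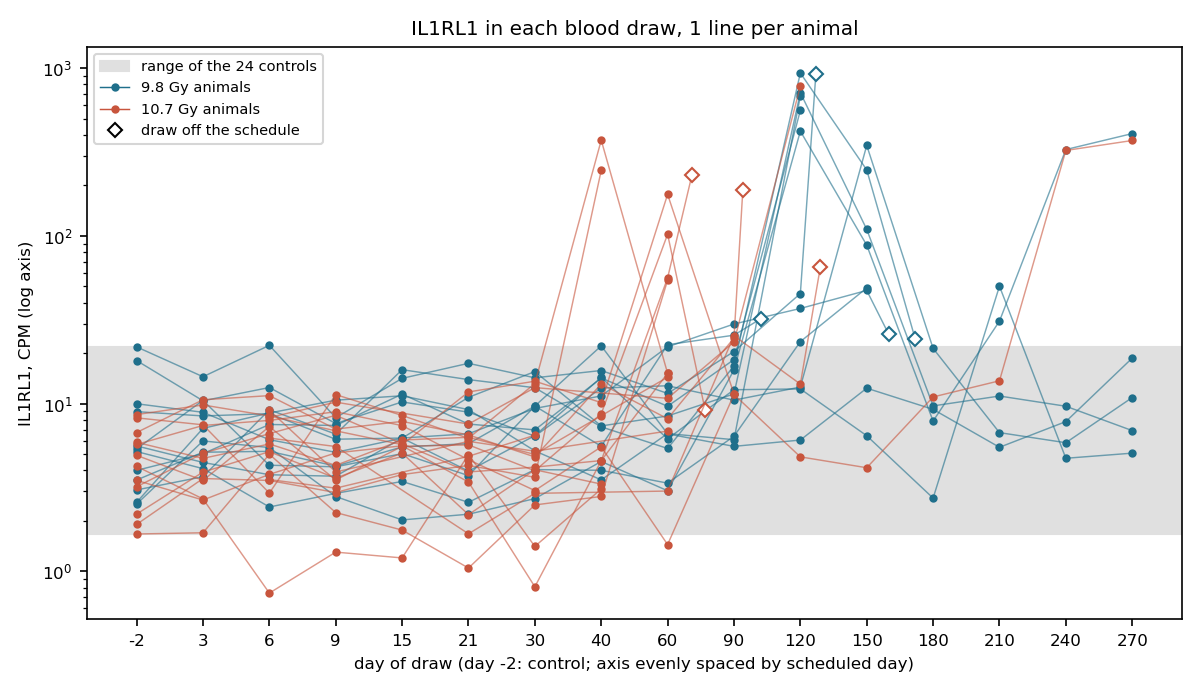
IL1RL1 in CPM (log axis) in each draw by day, 1 line per animal, coloured by dose; the grey band is the range of the 24 controls and open diamonds are draws off the schedule. Nearly all draws to Day 30 lie in the band, and the draws far above it fall on Day 40 and 60 in HD animals, on Day 120 and 150 mainly in LD animals and on Day 240 and 270 in B1503 and B2502. Draws came from 11 LD and 3 HD animals on Day 120 and from 8 LD and 1 HD on Day 150.

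The highest draws of Day 40 and 60 came from HD animals. On Day 40 IL1RL1 was 372 CPM in B2003 and 246 CPM in B2007, and the other 10 HD animals were at 2.79 to 13.1 CPM. On Day 60 it was 177 CPM in B2001, 102 in B2501, 56.1 in B2004 and 54.3 in B2505, all HD. The highest LD draw was 22.1 CPM on Day 40 and 22.4 CPM on Day 60, at the upper edge of the controls. On Day 90, by contrast, no draw was far above the controls, with a range of 5.56 to 29.8 CPM over 17 draws and a median of 15.9, against a control median of 5.04.

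On Day 120 the draws split widely. IL1RL1 was 935 CPM in B1506, 781 in B2507, 713 in B1003, 680 in B1005, 559 in B1006 and 421 in B1503, while the other 8 draws had 4.81 to 45.3 CPM. B2507 is HD and the other 5 are LD, among 3 HD and 11 LD animals drawn on that day. On Day 150 B1502 had 346 CPM, B1506 247 and B1003 109.3, and the 9 draws had a median of 48.9. On Day 180 the 6 animals left had 2.73 to 21.3 CPM, and none was above the highest control. On Day 240 and 270 B1503 (LD) had 327 and 407 CPM and B2502 (HD) had 323 and 370 CPM, whereas the other 4 animals had 4.72 to 18.7 CPM. The high draws on these last days were therefore those of 2 animals.

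Most animals had just 1 or 2 high draws on the schedule. Of 28 animals, 22 had at least 1 scheduled draw above the highest control, 13 of them just 1, 7 of them 2, and 2 animals had 3 or more. For 13 of these 22 animals the highest draw was also the last scheduled draw, so how long the level stayed high was not seen on the schedule. In 6 of the other 9 the next scheduled draw was back at or below the highest control. B1003 went from 713 CPM on Day 120 to 109.3 on Day 150 and 9.68 on Day 180. B2003 went from 372 CPM on Day 40 to 15.1 on Day 60. B1503 came down to 7.86 CPM on Day 180 and was at 327 CPM on Day 240.

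The neighbouring receptor genes were often high in the same draws. Some of these draws also had high IL1RAP, which is on chromosome 2, or high sums of some gene lists given below. Whether neighbours were high together more often than other genes was not tested. How often genes outside the members and lists were high in these draws was not counted. Among 140 scheduled draws from Day 30 on, 35 had IL1RL1 above its highest control, and IL18R1 was above its own highest control (26.6 CPM) in 28 of these, which is 80% of 35 and 68.3% of the 41 draws with high IL18R1. IL1R2 was above in 23 of the 35 (65.7%), which is 92% of its 25 high draws. IL18RAP was also above in 23 (79.3% of its 29 high draws), and IL1R1 in 17 (94.4% of its 18). The cytokines and the antagonist had more high draws of their own. IL18 was above in 22 of the 35 and IL1RN in 20, but these were 38.6% and 48.8% of their own 57 and 41 high draws, and IL1B was above in 2. IL1RAP passed its highest control, the 828.5 CPM of B1504, in 5 draws in all, and each had high IL1RL1 (14.3% of the 35).

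At their highest the receptors were far from control. In B2507 on Day 120 IL1R2 was 2594 CPM (controls 6.58 to 132.1), IL18R1 1701 CPM (controls 5.66 to 26.6) and IL18RAP 291 CPM (controls 1.42 to 24.2). In B1503 on Day 270 IL1R2 was 2140 CPM, IL18R1 979 CPM and IL18RAP 244 CPM. In B2007 on Day 40 IL1R2 was 721 CPM and IL18R1 365 CPM. All of these draws also had IL1RL1 at 246 CPM or more. IL1RL2, the receptor gene that lies between IL1R1 and IL1RL1, was not among the genes tested, with at most 1.69 CPM in controls and at most 2.86 CPM on Day 120 to 270.

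The likeness of IL1RL1 to other genes differed by period. Over 156 draws of the controls and Day 3 to 21, the correlation of log2 CPM between IL1RL1 and IL18R1 was 0.06, and over 140 draws from Day 30 to 270 it was 0.87. For IL1R2 the values were 0.04 and 0.81 and for IL18RAP -0.03 and 0.72. For the summed level of an eosinophil list the values were 0.55 and 0.11, and for the sum of 16 genes known to respond to glucocorticoids they were 0.09 and 0.80. They were 0.13 and 0.66 for a neutrophil granule list, 0.15 and 0.56 for a mature neutrophil list, 0.34 and 0.58 for a basophil and mast cell list, 0.24 and 0.45 for a monocyte list and -0.28 and -0.69 for a T cell list. These are descriptions over repeated draws of 28 animals, which share libraries and scaling. Over all 296 scheduled draws the 8 genes most like IL1RL1 were IL18R1 (r = 0.80), IRAK3, PER1, SLA (each 0.79), ZBTB16, NFKBIA (both 0.78), KIT (0.77) and INSR (0.76). After each animal's mean was taken off they were IL18R1 (0.88), PFKFB2 (0.86), GK5, IL1R2 (both 0.85), NFKBIA, ZBTB16, KIT and ADAM19 (each 0.84). PER1 and ZBTB16 belong to the glucocorticoid list.

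**Figure D2:**
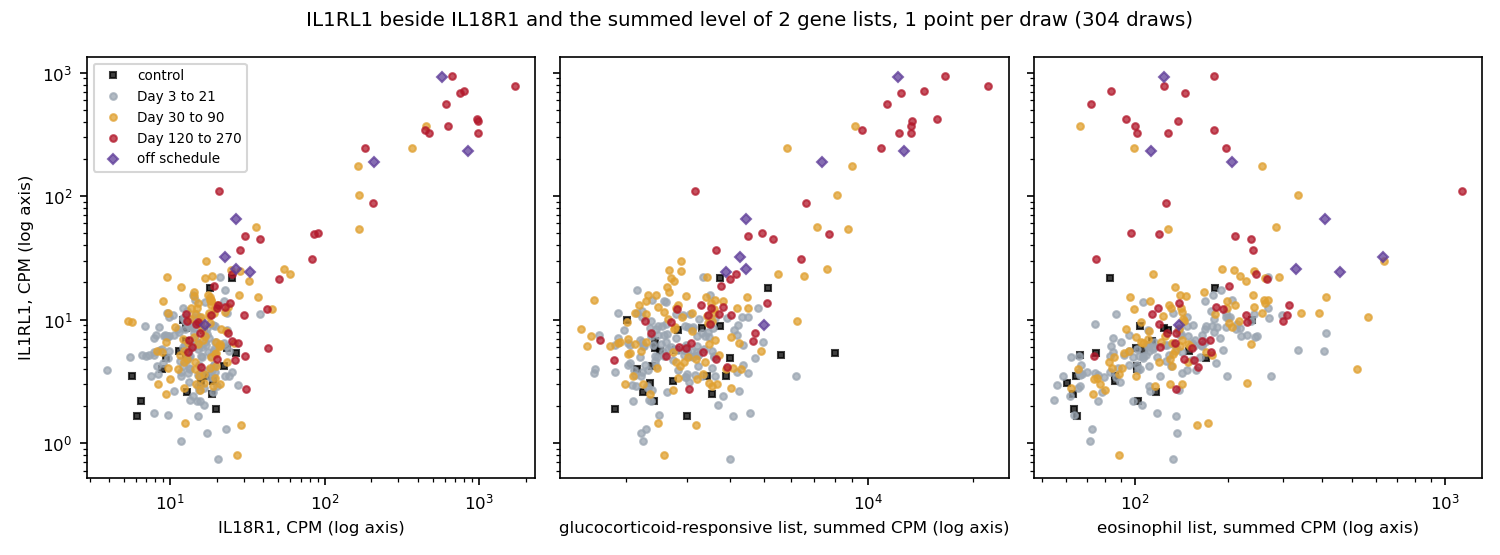
IL1RL1 in CPM (log axis) against IL18R1 in CPM, the summed CPM of 16 glucocorticoid-responsive genes and the summed CPM of the eosinophil list (log axes), 1 point per draw, coloured by period. Draws with IL1RL1 above 100 CPM lie to the right in the panels of IL18R1 and the glucocorticoid list, apart from 1 draw (B1003, Day 150), which has the highest eosinophil sum instead.

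Because dexamethasone was given to some animals, the sum of the 16 glucocorticoid-responsive genes is set beside IL1RL1. In controls the sum was 1862 to 8011 CPM with a median of 2816, and on Day 120 to 270 it was 1683 to 22158 CPM with a median of 3988. From Day 30 on it was above its highest control in 16 of 140 draws, and all 16 had IL1RL1 above its highest control, which is 45.7% of the 35 high draws. It was 22158 CPM in B2507 and 16693 CPM in B1506 on Day 120. The highest control sum, 8011 CPM, was again that of B1504, whose IL1RL1 was 5.37 CPM, near the control median. Sums of a mature neutrophil list were above their highest control (9389 CPM) in 15 of 140 draws, all 15 with high IL1RL1. Sums of a neutrophil granule list were above theirs (655 CPM) in 42 draws, of which 28 had high IL1RL1, or 66.7% of the 42 and 80% of the 35, more of the 35 than any other list here. Sums of a monocyte list were above theirs in 7 draws, 5 with high IL1RL1, and sums of a T cell list in none. The summed level of 8 basophil and mast cell genes was 51.97 to 224 CPM in controls and 38.99 to 409 CPM on Day 120 to 270, and 11 of its 14 draws above control had high IL1RL1. This sum mixes genes that moved in opposite directions, as given below. No gene of these lists that is in the table was at 0 in all controls. The part of glucocorticoids and of cell numbers in the level of IL1RL1 was not tested.

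The draw of B1003 on Day 150 differed from the other high draws. Its IL1RL1 was 109.3 CPM with IL18R1 at 20.7 CPM and IL1R2 at 19.0 CPM, both within the control range, and a glucocorticoid sum of 3162 CPM. Its eosinophil sum was 1129 CPM, the highest of all draws, against 60.5 to 237.8 CPM in controls. The Day 90 draw of B1002 had an IL1RL1 of 29.8 CPM with an eosinophil sum of 636 CPM and a glucocorticoid sum of 2884 CPM. Of 25 draws with a high eosinophil sum, 10 had high IL1RL1 (40.0%).

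For the tests, each day was compared with the controls of the same animals in edgeR (quasi-likelihood), blocked by animal. A member passed when its p, adjusted over all 13751 genes (Benjamini-Hochberg), was at most 0.05 and its fold change at least 1.5, and "rose" and "fell" are used of those alone. All days share the same controls, so the days are not independent of each other. Values are log2 fold changes with standard errors (SE).

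In the weeks after irradiation the antagonist IL1RN rose and the IL-1 receptors later fell. On Day 3 IL1RN was 11.0 to 51.96 CPM with a median of 18.8, against 4.21 to 36.7 CPM and a median of 11.6 in controls, and it rose by 0.87 (SE 0.12, edgeR adjusted p = 7.57e-07), higher in 22 of 24 animals. On Day 6 it rose by 0.89 (SE 0.12), higher in 23 of 24. The 2 groups overlapped, but nearly every animal moved up. IL1RN was the only member of 9 to pass on Day 3 and on Day 6, when 11.5% of all genes passed on either day. IL1B, the cytokine that IL1RN opposes, was 0.49 (SE 0.09) on Day 3 and 0.49 (SE 0.12) on Day 6, under the fold limit. IL18R1 and IL18RAP were -0.47 (SE 0.09) and -0.57 (SE 0.16) on Day 3, also under the limit. On Day 9 and Day 15 no member passed by edgeR, nor by DESeq2 or limma (7.58% and 6.01% of all genes passed by edgeR), while 2 and 5 members had an unadjusted p under 0.05.

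On Day 21 IL1R2 fell by 0.77 (SE 0.16, edgeR adjusted p = 0.000284), IL1RAP by 0.73 (SE 0.14) and IL1R1 by 0.59 (SE 0.15), 3 of 9 members against 10.4% of all genes. IL1R2 was 3.13 to 45.4 CPM with a median of 14.8 on that day, against 6.58 to 132.1 CPM and a median of 21.7 in controls. It was lower in 20 of 24 animals, as was IL1RAP, so the signalling chain, the decoy and the accessory chain were lower together. IL1RL1, which uses the same accessory chain, was 0.12 (SE 0.15) on Day 21 and at most 0.26 on any day to Day 21. Over Day 3 to 21 summed per animal, IL1RN alone passed (0.65, SE 0.13, edgeR adjusted p = 0.000118, 21 of 24 animals), against 7.53% of all genes. With the deposited log2 values and limma IL1RN was 0.54, under the fold limit, and no member passed.

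**Figure D3:**
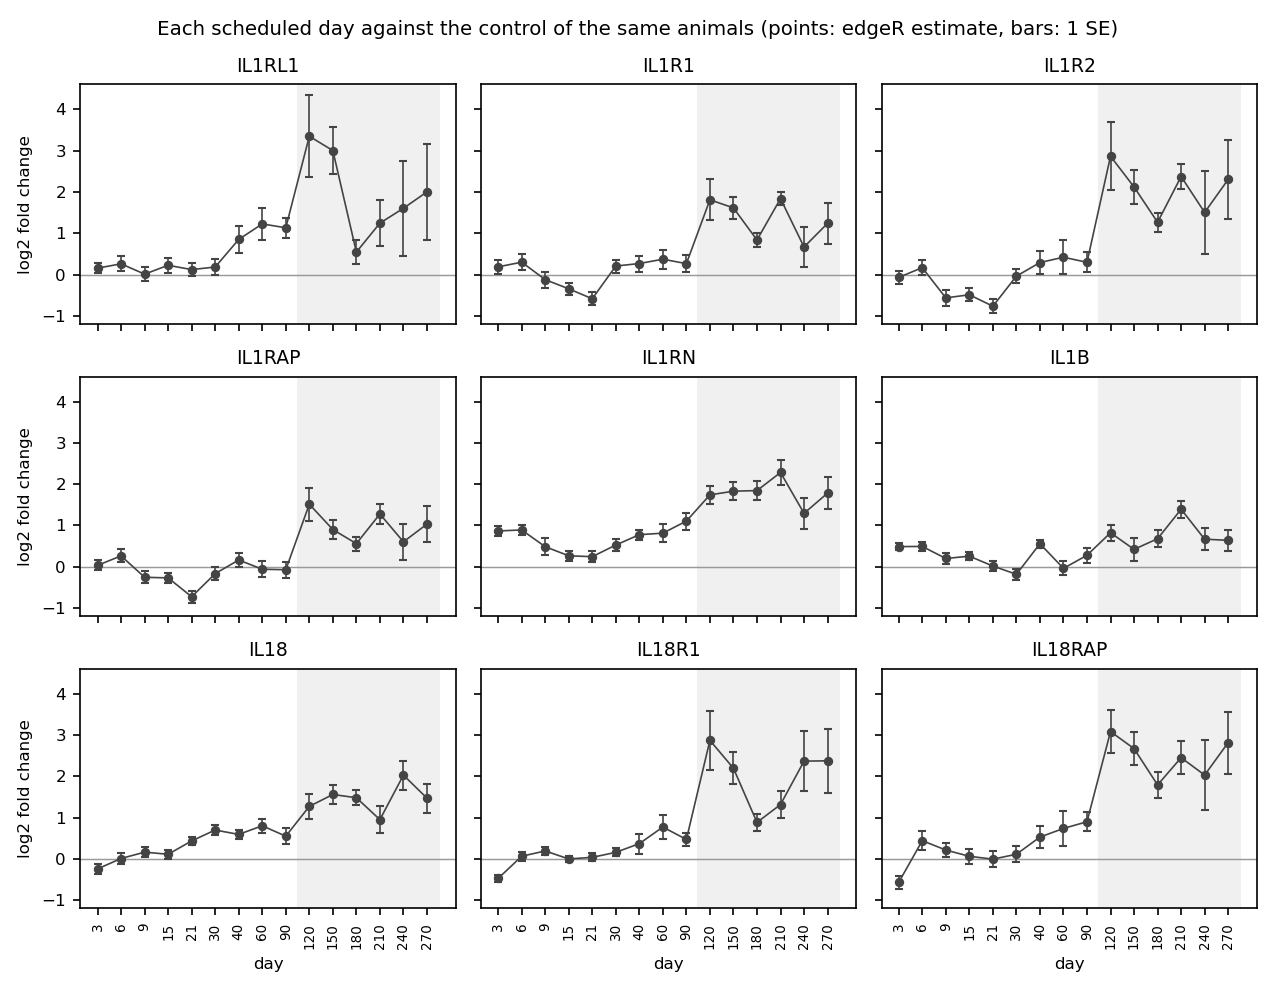
Log2 fold change of each member on each scheduled day against the controls of the same animals (points, edgeR; bars, 1 SE; 24 animals to Day 40, then 21, 15, 12, 9 and 6), with Day 120 to 270 shaded. IL1R1, IL1R2 and IL1RAP dip to Day 21, IL1RN is up from Day 3, IL18 climbs from Day 21, and IL1RL1 is near 0 to Day 30 and has wide bars on Day 120, 240 and 270.

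IL18 rose on Day 30, 40 and 60 and IL1RN on Day 40, 60 and 90, each in most animals. IL1RL1 rose on Day 40, 60 and 90. Its calls of Day 40 and 60, and that of IL18 on Day 40, were lost without the 2 animals of the highest IL1RL1 draws. IL18 rose by 0.70 on Day 30 (SE 0.12, edgeR adjusted p = 0.000109), 0.59 on Day 40 and 0.80 on Day 60, higher in 19 of 24, 20 of 24 and 19 of 21 animals, from a control median of 5.93 CPM to 8.53, 8.09 and 9.40 CPM. On Day 30 it was the only member to pass, against 5.9% of all genes. IL1RN rose by 0.78 on Day 40, in 24 of 24 animals, by 0.81 on Day 60 and by 1.10 on Day 90. IL18 was 0.55 on Day 90, under the fold limit. IL1RL1 rose by 0.85 on Day 40 (SE 0.33, edgeR adjusted p = 0.0388), by 1.23 on Day 60 (SE 0.38, edgeR adjusted p = 0.0251) and by 1.13 on Day 90 (SE 0.24, edgeR adjusted p = 0.00355). On Day 40 without B2003 and B2007, the animals with the highest draws, it was 0.50 (edgeR adjusted p = 0.0123), under the fold limit but higher in 16 of 22 animals. On Day 60 without B2001 and B2501 it was 0.89 (edgeR adjusted p = 0.0736), higher in 14 of 19 animals, and both calls were lost. IL18 on Day 40 was 0.56 without B2003 and B2007, also under the fold limit, so its call was lost too. These animals were left out as a check chosen after the data were seen. In the 4 animals whose control and Day 40 draws both had library number 0, IL1RL1 was 1.83 on Day 40 (edgeR adjusted p = 0.218) and did not pass. These 4 were all HD, with B2003 among them. On Day 90, when no draw stood far above the rest, IL1RL1 was higher in 13 of 15 animals. For Day 60 and 90 too few animals had the control and the draw in 1 library number range for such a check. The number and the time thus cannot be told apart on these days. IL18RAP rose by 0.90 on Day 90 (SE 0.23), in 14 of 15 animals. On each of Day 40, 60 and 90 there were 3 members that passed, against 6.92%, 4.23% and 7.06% of all genes.

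Summed over Day 30 to 90, 6 of 9 members rose, against 5.4% of all genes. They were IL1RL1 (1.29, SE 0.28, edgeR adjusted p = 0.000536, higher in 19 of 24 animals), IL1RN (0.89, SE 0.11), IL18RAP (0.88, SE 0.24), IL1R2 (0.70, SE 0.25), IL18R1 (0.69, SE 0.21) and IL18 (0.68, SE 0.10). IL1R1 (0.40), IL1B (0.29) and IL1RAP (0.11) did not pass. With the deposited log2 values and limma IL1R2 (0.44) and IL18R1 (0.54) did not pass either. The median over the 9 members was 0.69 and that over all genes -0.02. A check chosen after the data were seen used the 4 animals, all HD, whose control and later draws all had library number 0. The values there were IL1RL1 1.35, IL1RN 1.14, IL18RAP 2.31, IL1R2 1.22, IL18R1 1.10 and IL18 0.72. IL1RL1 (edgeR adjusted p = 0.150), IL1R2 and IL18R1 did not pass there, while IL1B did (0.72). The check thus changed the mix of doses along with the library range. Marker lists moved in the same window, with 7 of 9 erythroid genes, 5 of 7 eosinophil genes and 4 of 10 each of the mature neutrophil, neutrophil granule and monocyte genes higher and 4 of 9 B cell genes lower. Of 16 glucocorticoid-responsive genes 1 was higher, and no basophil and mast cell, T cell, cytotoxic lymphocyte or platelet gene of the lists passed. Their part in the members' change was not tested.

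On Day 120 to 270 summed, all 9 members were above control, each in 12 of 12 animals except IL1B, with 11 of 12. In this contrast 34% of all genes passed the same limits, 1980 higher and 2702 lower, and 2552 higher and 1810 lower with DESeq2's scaling, which moved the median of all genes from -0.15 to -0.01. IL1RL1 was 3.60 (SE 0.72), IL18RAP 3.17 (SE 0.41), IL1R2 3.14 (SE 0.66), IL18R1 3.03 (SE 0.50), IL1RN 2.0 (SE 0.19), IL1R1 1.91 (SE 0.40), IL18 1.45 (SE 0.19), IL1RAP 1.42 (SE 0.33) and IL1B 0.89 (SE 0.16). IL1RL1, IL18RAP, IL1R2 and IL18R1, 4 of the neighbours on chromosome 13, thus had larger differences and larger errors than IL1RN, which was more even among animals. The remaining neighbour, IL1R1, had a larger error than IL1RN but not a larger difference. By day IL1RL1 was 3.35 (SE 0.99) on Day 120, 3.00 (SE 0.58) on Day 150, 0.54 (SE 0.29) on Day 180, 1.25 on Day 210, 1.60 (SE 1.15) on Day 240 and 2.0 (SE 1.16) on Day 270. Of all genes 31.8%, 31.5%, 18.7%, 29.8%, 6.76% and 0.00727% passed on these days, which says nothing of the members, since these values chose them. IL18 kept a difference of 0.95 to 2.03 and IL1RN one of 1.29 to 2.28 over these 6 days. Leaving out 1 animal moved IL1RL1 over the whole window between 3.23 and 3.92. Against the same animals on Day 30 to 60, with libraries of number 0 alone, a comparison chosen after the data were seen, IL1RL1 was 3.38 (14 animals), which rests on the same late draws that chose the members and is likewise a description (25.1% of all genes passed). The control had a library number of the low range and every late draw had the number 0 or one of the high range in all 12 animals, so the number and the time cannot be told apart in the contrast with control itself.

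From Day 30 to 60 the log2 fold change of IL1R2, IL18RAP, IL1R1, IL1RAP and IL1RN was higher in HD than in LD animals. Such a difference can come from HD animals going up, LD animals going down or both. The change within each dose was not tested. The difference of the log2 fold change of HD and LD animals (HD minus LD) was tested on counts summed over Day 30 to 60 in 24 animals, 12 of each dose, and 5 of 9 members passed, against 3.93% of all genes. Of the HD animals B2005, B2007 and B2503 had no Day 60 draw, while all 12 LD animals had one. The summed days were thus not fully matched between doses. IL1R2 had 1.95 (SE 0.41, edgeR adjusted p = 0.00296), IL18RAP 1.78 (SE 0.43, adjusted p = 0.00876), IL1R1 0.87 (SE 0.27, adjusted p = 0.0448), IL1RAP 0.87 (SE 0.22, adjusted p = 0.0131) and IL1RN 0.83 (SE 0.18, adjusted p = 0.00362). IL1RL1 (1.41, SE 0.55, adjusted p = 0.110) and IL18R1 (1.05, SE 0.39) did not pass, and IL18 was -0.01 (SE 0.20). The 4 controls with library number 0 were all of HD animals, so the ranges were not balanced between doses. In the 20 animals whose controls had numbers of the low range, a check chosen after the data were seen, the same 5 members passed and so did IL1RL1 (1.73, SE 0.55, edgeR adjusted p = 0.04999, at the limit), among 655 of 13751 genes. IL1B was 0.58 (SE 0.17), just under the fold limit, and passed with TMM, DESeq2 and limma (0.64, 0.63 and 0.68) and on leaving out any 1 of B2001, B2004, B2501, B2503 and B2505 (0.60 to 0.65). The call of IL1R1 was lost with limma (0.79) and on leaving out any 1 of B2001, B2002, B2003, B2007, B2501, B2504, B2505 and B2508, with values of 0.76 to 0.89 there, and IL1RL1 passed without B2502 (1.66, edgeR adjusted p = 0.0486). On Day 30 alone and Day 40 alone, chosen after the data were seen, no member passed by edgeR (0.0% and 0.0364% of all genes), with 1 and 3 members at an unadjusted p under 0.05. On Day 60 alone 7 members passed, all but IL18 and IL18R1, when 23.1% of all genes passed. Without the animal as a block no member passed over Day 30 to 60, and 6 of all genes did.

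**Figure D4:**
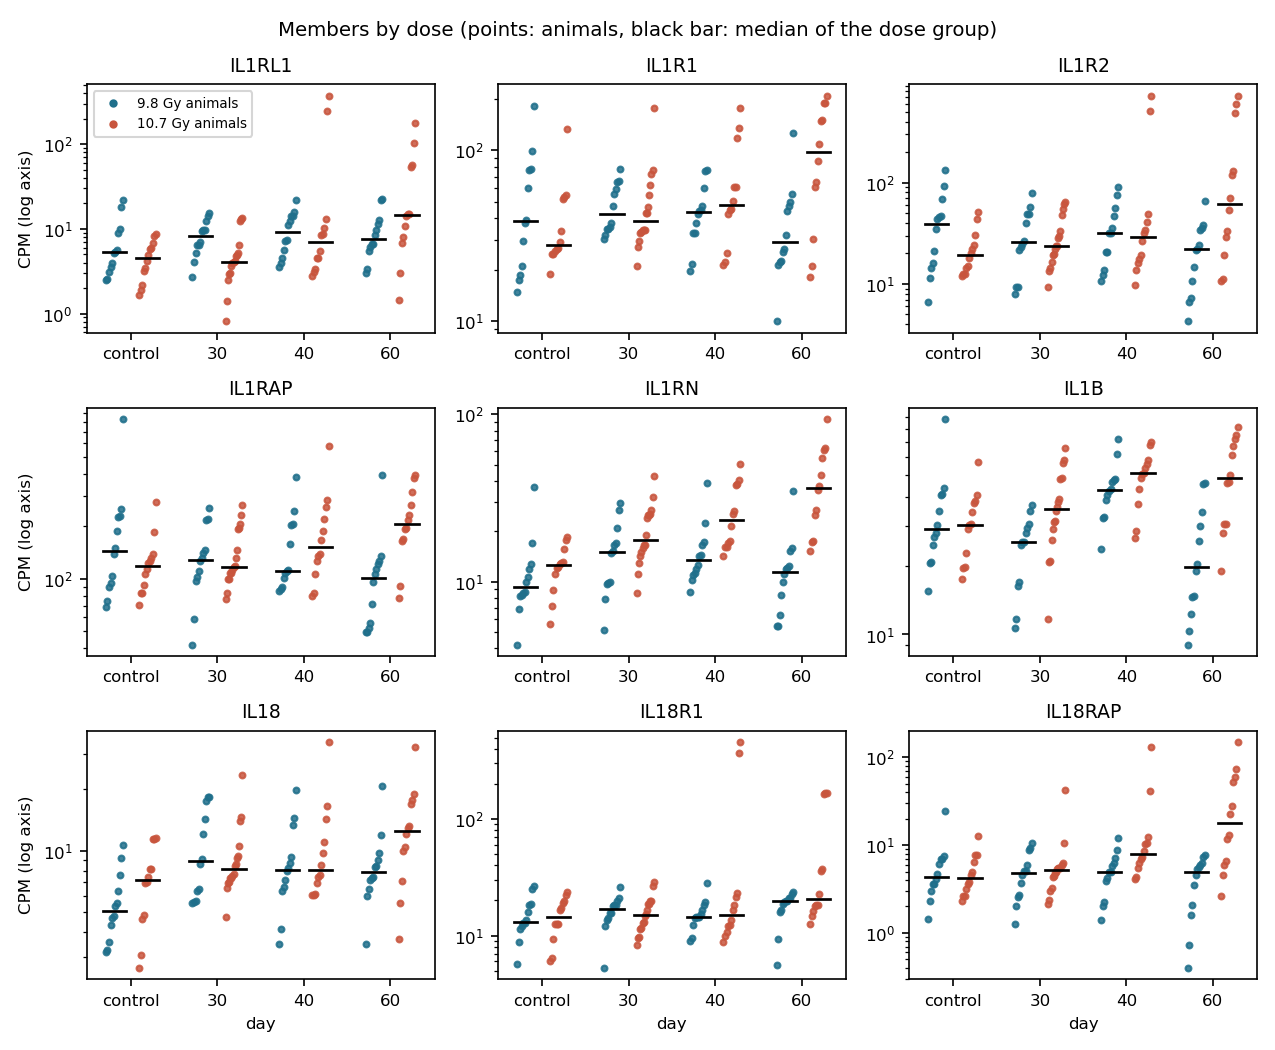
CPM (log axis) of each member in controls and on Day 30, 40 and 60, 1 point per animal, LD and HD side by side, with black bars at the medians. The dose groups overlap on Day 30 and 40, and on Day 60 the HD medians of IL1R2, IL18RAP, IL1RN, IL1R1 and IL1RAP lie above the LD medians while the ranges still overlap. HD animals without a control (B2006, B2008, B2506 and B2507) are shown where drawn but were not in the test.

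The levels of HD animals on Day 60 given here include B2006, B2506 and B2507, which had no control and were not in the test. On Day 60 IL1R2 was 4.27 to 66.1 CPM in LD animals with a median of 21.9, and 10.7 to 715 CPM in HD animals with a median of 61.8. IL18RAP was 0.401 to 7.76 CPM with a median of 4.93 in LD and 2.62 to 148 CPM with a median of 17.8 in HD. IL1RN was 5.40 to 34.7 CPM in LD and 15.3 to 93.8 CPM in HD, with medians of 11.5 and 36.3. The decoy receptor and the antagonist were thus both higher by median in HD, with overlapping ranges. IL1RL1 had a median of 7.53 CPM in LD and 14.7 CPM in HD, and its HD range, 1.44 to 177 CPM, enclosed the LD range. Marker lists moved in the same comparison, with 9 of 10 mature neutrophil genes, 7 of 10 neutrophil granule genes and 7 of 16 glucocorticoid-responsive genes higher in HD over Day 30 to 60. On Day 60 the mature neutrophil sum was 730 to 6305 CPM in LD and 2662 to 17516 CPM in HD, and the glucocorticoid sum 1484 to 6528 CPM and 1989 to 8988 CPM. Their part in the dose difference was not tested.

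No member passed for a difference between doses over Day 3 to 21, or between sexes over Day 3 to 21 or Day 30 to 60, by edgeR, DESeq2 or limma, and no member had an unadjusted p under 0.05 in any of these. None of all genes passed either (0.0%). For IL1RL1 the dose difference over Day 3 to 21 was 0.09 (SE 0.28) and the difference of the sexes over Day 30 to 60 was 0.75 (SE 0.60). Among LD animals, those followed to Day 270 were compared with those whose draws ended earlier. No member passed on Day 90 (12 animals, 0.00727% of all genes) or on Day 120 (11 animals, 0.0%) by any of the 3 tools, and none had an unadjusted p under 0.05. IL1RL1 was -0.67 (SE 0.38) and -0.71 (SE 1.18), with intervals of about 2 SE to either side of -1.42 to 0.08 and -3.02 to 1.60.

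The draws off the schedule were compared with the preceding scheduled draw of the same 8 animals. IL1RL1 was 918 CPM in B1001 on Day 127 after 45.3 CPM on Day 120, 230 CPM in B2004 on Day 71 after 56.1 CPM, 188 CPM in B2504 on Day 94 after 24.6 CPM and 64.8 CPM in B2506 on Day 129 after 13.1 CPM. It was 31.97 CPM in B1504 after 25.6 CPM, 25.8 CPM in B1002 after 47.3 CPM, 24.1 CPM in B1506 after 247 CPM and 9.10 CPM in B2501 after 102 CPM. It was therefore higher in 5 animals and lower in 3. The log2 difference was 0.72 (SE 0.86), and no member passed or had an unadjusted p under 0.05 by edgeR, DESeq2 or limma (0.0% of all genes).

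Other genes of the pathway gave a mixed account. None of the 8 other ligands and antagonists, among them IL33, the ligand of IL1RL1, and IL1A, passed the filter on low counts, and IL33 was at most 0.497 CPM in controls and at most 0.455 CPM on Day 120 to 270. IL18BP, which binds and blocks interleukin-18, was measured at 21.5 to 54.6 CPM in controls and 13.4 to 56.5 CPM on Day 120 to 270, with a log2 difference of -0.24 over that window that did not pass. Of 8 inflammasome genes PYCARD, the adaptor that recruits caspase-1, rose over Day 3 to 21 (0.63, SE 0.06), the 8 had a median of 0.36 over Day 30 to 90, and 5 were higher over Day 120 to 270, led by NLRC4 (1.57), AIM2 (0.97) and CASP5 (0.91). Of 19 genes between the receptors and NF-kB, the median over Day 3 to 21 was -0.08 and IRAK3 alone passed over Day 30 to 90 (0.86, SE 0.12). Over Day 120 to 270 there were 3 higher and 2 lower, among them IRAK3 (2.36, SE 0.36), which restrains signalling of these receptors, NFKBIA (1.42, SE 0.29), the inhibitor of NF-kB, and IRAK2 (-0.76, SE 0.11). The median over these 19 genes was 0.02 on Day 120 to 270, against 2.0 over the 9 members and -0.15 over all genes.

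Cells known for IL1RL1 did not move as one. Over Day 120 to 270 the basophil and mast cell list had 2 of 6 genes higher and 3 lower, with CPA3 at -2.25 (SE 0.44), MS4A2 at -2.07 (SE 0.49) and FCER1A at -1.89 (SE 0.50), and a median of -1.21. Against Day 30 to 60, with library number 0 alone and the same late draws, 2 of the 6 were higher and 4 lower. KIT was 2.08 (SE 0.39) there and CPA3 -2.42 (SE 0.33). Of 7 eosinophil genes 3 were higher than control over Day 120 to 270, among them CEBPE (2.14, SE 0.31), with a median of 0.81. Of 16 glucocorticoid-responsive genes 11 were higher and none lower, led by ZBTB16 (2.04, SE 0.48) and CD163 (1.71, SE 0.30), with a median of 1.33. Mature neutrophil genes were higher in 9 of 10 cases and neutrophil granule genes in 10 of 10, while 8 of 11 T cell genes and 9 of 9 B cell genes were lower. Platelet genes were higher in 7 of 7 cases, erythroid genes in 4 of 9 and monocyte genes in 5 of 10 with 1 lower, and 2 of 10 cytotoxic lymphocyte genes were lower. Over Day 3 to 21 likewise 3 of 7 eosinophil genes rose, among them EPX (0.95, SE 0.22), with a median of 0.51. In that window the median was 0.02 over 6 basophil and mast cell genes and -0.19 over 16 glucocorticoid-responsive genes. These lists were read in the same contrast that chose IL1RL1, and their part in its level was not tested.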

How the data were processed

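The authors trimmed stranded, ribosomal RNA-depleted reads with cutadapt 2.10, aligned them with STAR 2.7.6a and counted them per gene with Subread 2.0.1 on Mmul_10 (RefSeq), and deposited raw counts and a table of log2 values of 16730 genes. The study's methods name upper quartile scaling, conditional quantile normalization against GC content and a log2 transformation for the normalized values. Of 304 samples, 24 were controls and 8 were off schedule. Genes that had 3 or more counts in 80% of samples or more entered edgeR 4.0.16 (R 4.3.3) with upper quartile scaling and the animal as a block, since the same animals were drawn before and after irradiation. A call needed p, adjusted over all genes (Benjamini-Hochberg), of at most 0.05 and a fold of at least 1.5. Counts were summed per animal over Day 3 to 21, 30 to 90 (dose: 30 to 60) and 120 to 270. TMM scaling, DESeq2 1.42.0, no filter, limma 3.58.1 on the deposited log2 values, no block, library numbers and animals left out were alternatives. In simulated data edgeR recovered 200 of 200 changed genes for Day 60 and 195 of 200 for Day 180, each among 13751 genes. Recovery of genes as uneven between animals as IL1RL1, or of changes near the fold limit, was not tested. Named were the 9 members, up to 3 genes per list and the 8 genes most like IL1RL1. The lists were other ligands, other receptors and IL18BP, inflammasome, signalling to NF-kB, glucocorticoid-responsive genes, and markers of eosinophils, basophils and mast cells, mature neutrophils, neutrophil granules, monocytes, T cells, cytotoxic lymphocytes, B cells, platelets and erythroid cells. Members and lists were chosen with earlier results of these data known. The draws carry counting error and the spread between animals.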

Additional observations from a re-analysis of the deposited data

Results flagged for a closer look

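In groups of 4 to 10 samples (1 dose on 1 day), 16 of 54 checks found a sample far from the others of its group. The cut-offs assume normally spread values, which CPM with a few very high draws are not, so no chance rate is set beside this count. The groups were LD animals on Day 150 to 270, days whose values chose the members, and HD animals on Day 90. The checks share animals and genes, and 13 of the 16 samples were the LD animal B1503 on Day 240 or 270, among 5 LD animals. On Day 240 it had 327 CPM of IL1RL1 (next highest 9.64), 296 CPM of IL1R1, 1389 CPM of IL1R2, 722 CPM of IL1RAP, 41.5 CPM of IL1RN, 984 CPM of IL18R1 and 172 CPM of IL18RAP. On Day 270 it had 407 CPM of IL1RL1 (next highest 18.7), 461 CPM of IL1R1, 2140 CPM of IL1R2, 990 CPM of IL1RAP, 979 CPM of IL18R1 and 244 CPM of IL18RAP. The glucocorticoid sums of B1503 on these days were 12257 and 13407 CPM, above the highest control of 8011 CPM, and their part was not tested. The other 3 were the HD animal B2507 on Day 90, with 550 CPM of IL1RAP and 59.4 CPM of IL18R1, and the LD animal B1502 on Day 150, with 444 CPM of IL18R1 (next highest 206.4).

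The change from control over Day 30 to 60 differed between HD and LD animals for 5 members by edgeR's interaction test, by 0.87 for IL1R1 (adjusted p = 0.0448), 1.95 for IL1R2 (adjusted p = 0.00296), 0.87 for IL1RAP (adjusted p = 0.0131), 0.83 for IL1RN (adjusted p = 0.00362) and 1.78 for IL18RAP (adjusted p = 0.00876).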

How the results depend on the processing

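Over Day 3 to 90 there were 15 calls of a member on a day (12 higher, 3 lower), 23 without the animal block (18 higher, 5 lower), and 9 within 1 library number range on the 7 days that allow it, where the full set also gave 9. These were not all the same calls. On Day 3, 6, 9 and 15 all 24 animals were within 1 range, so those fits were the same as in the full set. Only Day 21 (16 animals) and Day 30 and 40 (4 animals each) could differ. IL18 on Day 30 and IL1RL1 on Day 40 did not pass in the 4 animals of 1 range, all HD. IL1B and IL18RAP on Day 40 passed there alone. IL1RN alone passed over Day 3 to 21, and 0 members with the deposited log2 values and limma. For the dose difference 5 members passed, 0 without the block, 0 on Day 30 alone, 0 on Day 40 alone, and 4 to 6 on leaving out each HD animal. The block changed no other count over Day 3 to 21 (1), Day 30 to 90 (6) or Day 120 to 270 (9). Leaving out each animal gave 6 to 6 members over Day 30 to 90, 9 to 9 over Day 120 to 270, whose values chose the members, and 0 to 0 for animals followed to Day 270. On Day 180 to 270 it gave 14 to 23 calls against 16, with 23 without B1003 and 14 without B1503 or B2502. IL1RAP over Day 30 to 90 went from 0.11 to -0.076 without the block. IL18 in the dose difference (-0.01) was 0.049 with TMM, 0.040 with DESeq2, 0.017 without the filter, and -0.098 to 0.069 on leaving out each HD animal (0.062 without B2002, 0.029 without B2005, 0.019 without B2007, 0.0096 without B2502, 0.069 without B2508). The causes were not tested. With 6 animals from Day 180 on, precision is limited by the number of animals.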
